A study of Mus musculus with 32 samples.

Results

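Spinal cords taken 1 day after spinal photothrombosis (4 arrays, labelled 1d scPT) were compared with spinal control cords (4 arrays, labelled Kontrolle scPT), and these 8 arrays are part of a series of 32. Photothrombosis is a model of ischaemia in which light activates a dye in the blood, so that platelets and clot close the small vessels under the beam. The comparison was defined by the condition label alone, and it was read over 19505 genes, each named through a probe with 1 gene symbol. Where a second tissue is set beside it, this is the cerebrum at day 1 after cerebral photothrombosis (4 arrays) and the cerebral controls (4 arrays) of the same series.

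All groups were male wild-type C57BL/6J mice, and at the start of the experiments they were 6 to 12 weeks old and weighed 20 to 25 g. The labels give the day 1 group photothrombosis of the cord and the controls no treatment beyond the word control, and they do not say whether controls had surgery or light without dye. They also do not say that each array came from a separate animal, so each p-value reflects only how far these arrays spread, and that spread may be technical. The number of arrays limits the precision.

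In the first day after vessel closure, injured tissue is known to pass through a set order of events. Transcription factors of the AP-1 and EGR families are switched on first, then cytokines and chemokines that draw neutrophils and monocytes out of the blood through adhesion molecules on the vessel wall. Microglia, the resident macrophages of the central nervous system, give up their resting receptors such as P2Y12, astrocytes turn reactive, and oligodendrocytes, the cells that make myelin, are sensitive to lack of oxygen.

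The deposited values are log2 values centred on 0 for each gene over the 16 arrays of controls and day 1, so a value says how far an array lies above or below the middle of these arrays and holds no level of the gene. All changes below are day 1 cords minus control cords on the log2 scale, where 1 is a doubling, with the standard error (SE) of the limma fit, and a gene was called changed at a Benjamini-Hochberg adjusted p under 0.05 over all genes. Medians of the 8 arrays lay between -0.029 and 0.033, and the median residual SD of a gene was 0.185.

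The labelled tissue was checked against position genes of the trunk. Hoxc8, a transcription factor that marks the thoracic body axis, averaged 2.52 and 3.16 in spinal day 1 and spinal control arrays, and -2.34 and -2.63 in cerebral day 1 and cerebral control arrays (n = 4 each). The spinal arrays held the higher values, as their label says.

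The 8 arrays differed in the signal of genes known from neighbouring tissue, and the part that dissection had in this was not tested. The 65 skeletal muscle genes averaged 0.05, -0.063, 0.13 and 0.13 in the day 1 cords, against 1.79, 1.29, 0.49 and 0.052 in the control cords. Control replicates 1 and 2 thus held the most muscle signal, control replicate 3 less, and the others little. The 13 genes of dorsal root ganglion neurons, the sensory neurons beside the cord, averaged 2.47, 2.24, 0.14 and 0.28 in the day 1 cords, against 0.14, 3.25, 0.15 and 2.66 in the control cords. Day 1 replicates 1 and 2 and control replicates 2 and 4 stood high, so 2 arrays of each group carried this signal. Genes of Schwann cells, which wrap peripheral nerve, averaged 1.45, 1.30, 0.50 and 0.13 in the day 1 cords, against -0.084, 1.71, -0.12 and 1.07 in the control cords. Fibroblast and meninges genes averaged 0.98, 0.91, 0.33 and -0.36 in the day 1 cords, against -0.87, 1.46, -0.93 and 0.46 in the control cords. Both lists followed the dorsal root ganglion genes, and counts below are therefore also given without those 4 arrays (2 cords against 2 cords) where they then move by over 1.5 times.

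**Figure D1:**
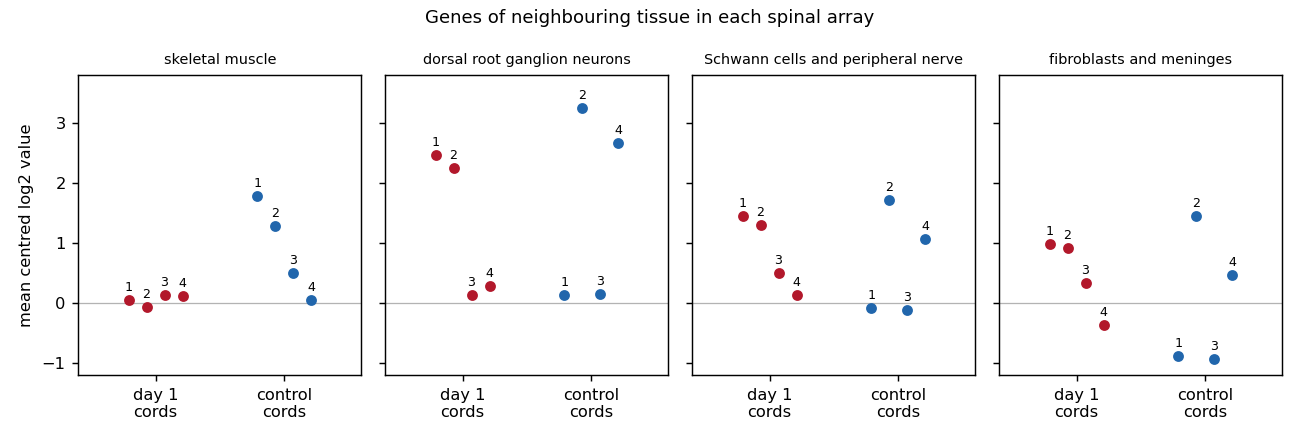
Mean centred log2 value of the genes of 4 tissues that border the cord, in each of the 4 day 1 cords (left) and the 4 control cords (right); the digits beside the points are the replicate numbers. Muscle genes stood at 1.79 and 1.29 in control replicates 1 and 2, and dorsal root ganglion genes were above 2 in day 1 replicates 1 and 2 and control replicates 2 and 4.

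At day 1, 3083 genes were higher in day 1 cords and 3141 were lower, which is 15.8% and 16.1% of those tested. With the 4 arrays high in dorsal root ganglion genes left out and 2 cords a group, 3303 genes were called, 1550 higher and 1753 lower. The median change of all genes was 0.0235. A change of at least 2-fold was reached by 397 of the genes that rose and 294 of those that fell. All 4 day 1 cords lay above all 4 controls in 2586 genes (13.3%) and below them in 2608 (13.4%). Day 1 replicate 4 was the least changed cord. It was the lowest of the day 1 cords in 67% of the 397 genes that rose at least 2-fold, and the highest of them in 59.5% of the 294 that fell.

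The muscle genes above are part of these calls. Of the 65, 38 fell and 1 rose, led by the fast myosin Myh4 (-4.55), and with only control replicates 3 and 4 as controls 15 fell. The calls in this list thus moved with the choice of controls, and its genes are not described further. Of the 13 dorsal root ganglion genes 1 rose and none fell, which is 7.69% higher, below the 15.8% of all genes.

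The 15 named rises and 15 named falls were taken from called genes whose groups did not overlap, so their lack of overlap is no added support. The rises were led by Tgm1, Lcn2 and Selp. Tgm1, an enzyme that cross-links proteins of the skin's cornified layer, had values of 4.20, 4.59, 4.69 and 3.93 in the day 1 cords, against -1.44, -1.26, -0.75 and -1.14 in the control cords. The 2 groups lay far apart, and the change was 5.50, SE 0.44, or 45.2-fold (adjusted p = 1.38e-10). Lcn2, the iron-binding lipocalin 2 made by reactive astrocytes and neutrophils, stood at 3.24, 4.61, 4.88 and 3.20 in the day 1 cords, against -2.65, 1.17, -0.71 and -3.24 in the control cords. Its controls were widely spread, with control replicate 2 highest, and by that rule all of them lay below the day 1 cords (5.34, SE 0.73, adjusted p = 2.13e-06). Selp, the adhesion molecule P-selectin of platelets and activated endothelium, stood at 3.79, 5.96, 5.46 and 0.53 in the day 1 cords, against -1.13, 0.10, -1.13 and -1.09 in the control cords. Day 1 replicate 4 was only just above control replicate 2, while the other 3 day 1 cords were far above it (4.75, SE 0.69, adjusted p = 4.43e-06).

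Serpina3n, a serine protease inhibitor of reactive astrocytes, was even within each group, at 3.31, 3.48, 3.69 and 3.14 in the day 1 cords, against -1.56, -0.43, -1.51 and -1.36 in the control cords. This gave a change of 4.62, SE 0.21 with the smallest adjusted p of the 15 named rises (3.35e-16). Ccn1, a matricellular protein induced as an immediate early gene, stood at 3.34, 4.04, 4.63 and 3.88 in the day 1 cords, against -0.48, 0.052, -0.97 and 0.068 in the control cords, with no overlap (4.30, SE 0.35, adjusted p = 1.65e-10). Tnc, the matrix glycoprotein tenascin C, stood at 3.27, 4.29, 4.17 and 2.24 in the day 1 cords, against -0.70, -0.38, -0.65 and -0.72 in the control cords. Timp1, an inhibitor of matrix metalloproteinases, had 3.75, 4.55, 4.55 and 1.51 in the day 1 cords, against -0.20, -0.047, -0.36 and -0.53 in the control cords. In both genes the controls were close together and day 1 replicate 4 was the lowest of the day 1 cords (4.10, SE 0.29 for Tnc and 3.87, SE 0.41 for Timp1). The other 8 named rises had changes between 3.35 and 4.16. They were Lilrb4a, an inhibitory receptor of myeloid cells, Rhoj, a small GTPase of endothelium, Ms4a6d of macrophages, the chemokines Ccl3 and Ccl6, Tnfrsf12a, the receptor for the cytokine TWEAK, Itga5, the alpha chain of a fibronectin receptor, and Clic1, a chloride intracellular channel protein. Lilrb4a has a near-identical neighbour, so its probe may read both.

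The largest falls included 2 receptors of resting microglia and an enzyme of oligodendrocytes. Gng8, a gamma subunit of G proteins, had the largest fall, with values of 0.29, -0.15, 0.12 and 0.41 in the day 1 cords, against 2.42, 2.70, 3.01 and 2.51 in the control cords. Every day 1 cord was well below every control (-2.50, SE 0.21, adjusted p = 3.54e-10). P2ry12, the ADP receptor by which resting microglia sense injury, stood at -1.93, -2.59, -2.45 and -2.35 in the day 1 cords, against 0.071, -0.42, -0.14 and 0.10 in the control cords. The groups did not overlap and the fall was 4.69-fold (-2.23, SE 0.25, adjusted p = 7.41e-08). Siglech, a lectin of microglia, stood at -2.33, -2.17, -1.97 and -1.55 in the day 1 cords, against -0.036, -0.50, 0.054 and -0.28 in the control cords, again with all day 1 cords below all controls (-1.81, SE 0.30, adjusted p = 3e-05). Aspa, the aspartoacylase of oligodendrocytes that frees acetate from N-acetylaspartate, stood at -0.0018, -0.55, -0.66 and -0.29 in the day 1 cords, against 1.74, 1.55, 1.85 and 1.73 in the control cords. Its controls lay within a narrow range and the day 1 cords all below it (-2.09, SE 0.36, adjusted p = 4.98e-05).

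The other named falls ran from -2.15 to -1.83. Among them were Car14, a membrane carbonic anhydrase (-2.15), Hhip, which binds and holds hedgehog ligands (-2.06), Dbp, a transcription factor of the circadian clock's output (-2.004), Aplnr, the apelin receptor of endothelium (-1.97), and Gamt, the last enzyme of creatine synthesis (-1.84). The remaining genes were Depdc7, Myorg, a glycosidase of astrocytes, Chn2, Tprkb, Cep70 and Pigz, an enzyme of membrane anchor synthesis. Day 1 replicate 4 was nearest to the controls for Car14 and Hhip, at 1.80 and 0.16, where the other day 1 cords lay between 0.047 and 0.82 and between -1.34 and -0.95.

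**Figure D2:**
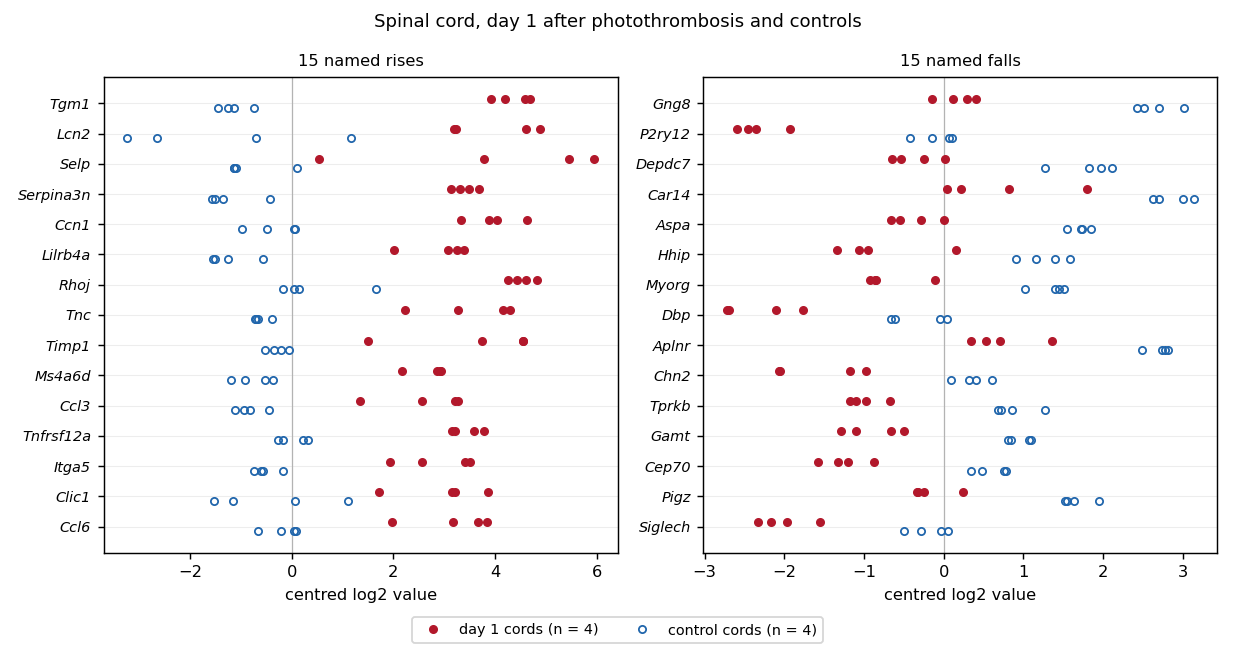
Centred log2 values of the 15 named rises (left panel) and the 15 named falls (right panel), 1 row a gene, in the 4 day 1 cords (filled circles) and the 4 control cords (open circles). The groups are apart in every row by the rule that chose the genes; the controls of Lcn2 and the day 1 cords of Selp are the most widely spread.

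Immediate early genes, transcription factors and regulators that cells induce within minutes of a stimulus without new protein synthesis, were higher in day 1 cords. Of 33 measured, 24 rose and none fell, with a median change of 0.69, against 0.0235 over all genes. The shares over all genes, 15.8% higher and 16.1% lower, are the background for this and every list count in the cord below. Junb, a JUN family member of AP-1, stood at 1.50, 1.77, 1.74 and 0.98 in the day 1 cords, against -1.67, -1.11, -1.75 and -1.74 in the control cords. No control reached the day 1 range (3.07, SE 0.23, adjusted p = 2.54e-11). Other AP-1 genes rose as well, Fos by 2.02, Fosl2 by 1.88 and Jun by 1.49, with the stress factor Atf3 at 2.63 and the growth regulator Myc at 2.91. The MAP kinase phosphatase Dusp1, a feedback gene that ends such signals, rose by 2.32, and Gadd45b rose by 2.29.

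Not all members of the list followed. Arc, a regulator of synapses, changed by -0.20, SE 0.23 (adjusted p = 0.53) and Npas4, a transcription factor induced by calcium entry, by -0.21, SE 0.16 (adjusted p = 0.35), neither past the threshold. Egr1, a zinc finger transcription factor, stood at -0.76, 0.24, 0.0091 and -0.59 in the day 1 cords, against -1.78, -1.88, -1.29 and -1.42 in the control cords. Its day 1 cords all lay above the controls, with a change of 1.32, SE 0.30 (adjusted p = 0.00112), but the call was lost with the muscle mean as a covariate, at 0.97, adjusted p = 0.103.

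The response of these genes differed from that of the cerebrum. There, 1 of the 33 rose and 9 fell at day 1, against 8.91% and 8.22% of all genes. The difference between the tissues (spinal minus cerebral change) was called higher in 21 and lower in none, against 4.7% and 6.58% of all genes. The same shares over all genes apply to the cerebral and difference counts of the lists below. Egr1 fell by 1.94 in the injured cerebrum, which made the difference 3.26 (adjusted p = 1.4e-05), and Junb changed there by -0.45 (difference 3.52, adjusted p = 7.11e-08). Egr2 rose by 1.67 in the cord and fell by 1.77 in the cerebrum (difference 3.44, adjusted p = 0.000396).

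Promoters of 4 genes that rose show which binding sequences lie near their starts. They are printed because AP-1 genes, Stat3 and metallothioneins rose, and each covers 250 bases before to 50 after the start as RefSeq lists it on GRCm38.p6, on the plus strand. Capitals mark matches, on either strand, to the AP-1 motif TGANTCA in Selp, Il6, Emp1 and Mt2, and to the STAT motif TTCNNNGAA in Emp1. In Mt2 they also mark TGCNCNC, a looser form of the metal response element core, TGCRCNC, where R is A or G. Some marked runs, such as TGCTCTC, are therefore not that core. In Emp1 the second STAT match shares bases with the second AP-1 match. For Emp1 2 promoters are listed, and only the first is printed.
Selp: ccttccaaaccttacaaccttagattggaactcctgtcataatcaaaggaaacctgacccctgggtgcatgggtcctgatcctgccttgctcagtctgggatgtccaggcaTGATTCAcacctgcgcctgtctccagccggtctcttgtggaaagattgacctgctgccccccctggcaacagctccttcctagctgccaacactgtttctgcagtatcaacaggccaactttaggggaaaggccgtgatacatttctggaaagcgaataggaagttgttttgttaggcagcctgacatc
Emp1: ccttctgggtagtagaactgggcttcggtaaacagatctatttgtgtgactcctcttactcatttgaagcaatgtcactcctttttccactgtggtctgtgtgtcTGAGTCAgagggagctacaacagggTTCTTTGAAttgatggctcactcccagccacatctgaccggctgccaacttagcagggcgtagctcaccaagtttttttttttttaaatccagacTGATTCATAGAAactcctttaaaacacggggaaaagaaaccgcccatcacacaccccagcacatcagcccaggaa
Il6: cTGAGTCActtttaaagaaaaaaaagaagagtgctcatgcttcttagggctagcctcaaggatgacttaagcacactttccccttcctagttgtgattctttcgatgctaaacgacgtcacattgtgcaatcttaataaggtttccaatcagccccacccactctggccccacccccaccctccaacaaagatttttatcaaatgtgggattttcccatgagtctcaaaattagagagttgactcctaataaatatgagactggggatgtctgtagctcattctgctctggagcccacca
Mt2: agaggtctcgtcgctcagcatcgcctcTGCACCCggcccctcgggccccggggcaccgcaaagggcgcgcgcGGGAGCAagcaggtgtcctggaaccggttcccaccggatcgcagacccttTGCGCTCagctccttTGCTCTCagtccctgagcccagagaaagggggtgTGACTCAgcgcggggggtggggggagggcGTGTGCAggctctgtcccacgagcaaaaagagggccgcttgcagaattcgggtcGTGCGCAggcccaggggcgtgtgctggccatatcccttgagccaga
Selp (chr1:164115014-164115313) and Il6 (chr5:30012864-30013163) each hold 1 AP-1 match, and Emp1 (chr6:135362681-135362980) holds 2 AP-1 and 2 STAT matches. Mt2 (chr8:94172368-94172667) holds 6 TGCNCNC matches and 1 AP-1 match. A match is a run of letters and not a shown site. The AP-1 motif lay in 7.95% of promoters of genes that rose, 5.38% of those of genes that fell, 7.15% of those of all genes tested and 7.81% of all 32851 listed. For the STAT motif the shares were 7.85%, 5.84%, 7.75% and 8.3% in the same order. The run TGCNCNC is short and looser than the metal response core. It lay in 58.7% of the promoters both of genes that rose and of genes that fell, against 55% of those of all genes tested and 51% of all listed.

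Genes of each listed cytokine branch rose. Of 27 genes of interleukin-1, IL-6 and LIF signalling, 21 rose and 2 fell, with a median of 1.06. Among the ligands, Il1b stood at 2.59, 4.53, 2.04 and 2.24 in the day 1 cords, against 0.027, -0.33, 0.24 and 0.10 in the control cords. Day 1 cords were above controls throughout (2.84, SE 0.50, adjusted p = 7.29e-05). Il6, which signals through gp130, stood at 2.25, 3.56, 2.55 and 1.44 in the day 1 cords, against 0.0047, -0.053, -0.38 and -0.40 in the control cords, with all day 1 cords above the controls (2.66, SE 0.38, adjusted p = 3.22e-06). Il11 and Lif, of the same family, rose by 2.32 and 1.06, and Clcf1, a ligand of the CNTF receptor, by 1.20. The alarmin Il33 rose by 2.12, and the receptor antagonist Il1rn, which blocks interleukin-1, by 2.04.

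On the receiving side, Osmr, the oncostatin M receptor, rose by 1.56, SE 0.20, Il6ra by 1.47 and Il1r1 by 1.27, while Cntfr, the receptor for ciliary neurotrophic factor, fell by 1.20 (adjusted p = 7.03e-06). The signal carrier Stat3 rose by 1.76 and its inhibitor Socs3 by 0.63. Among 22 genes of TNF and NF-kB signalling, 13 rose and none fell. Tnf itself changed by 0.27, SE 0.13 and did not pass (adjusted p = 0.102), whereas its receptor Tnfrsf1a rose by 2.45 and the NF-kB regulators Bcl3 and Nfkbiz by 2.55 and 1.90.

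Of 36 chemokines and receptors, 15 rose and none fell. Ccl2, which draws monocytes, stood at 1.48, 2.03, 1.81 and 0.99 in the day 1 cords, against -0.21, -0.22, -0.42 and -0.63 in the control cords. Every day 1 cord exceeded every control (1.95, SE 0.27, adjusted p = 2.43e-06). Cxcl2, which draws neutrophils, rose by 1.38, SE 0.26 and its receptor Cxcr2 by 0.86. Ccr1, a receptor for Ccl3, rose by 1.77. These rises were larger than in the cerebrum for many members: the difference was called higher for 11 of the 36 chemokine genes, 10 of the 27 interleukin genes and 8 of the 22 TNF genes. It was called lower for 2 interleukin genes, Cntfr (-0.87) and Il18, and for none of the chemokine and TNF genes.

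Neutrophil and monocyte genes were higher at day 1. Of 18 neutrophil genes, 9 rose and 1 fell, with a median of 0.42. S100a8, a calprotectin subunit that fills neutrophil cytoplasm, stood at 3.10, 5.02, 4.20 and 2.19 in the day 1 cords, against 1.47, 2.20, 1.52 and 0.37 in the control cords. Control replicate 2 reached into the range of the day 1 cords (2.24, SE 0.47, adjusted p = 0.000549). Its partner S100a9 rose by 1.69, SE 0.39 and Retnlg, a resistin-like protein of neutrophils, by 1.97, SE 0.49. Mpo, the myeloperoxidase of neutrophil granules, fell by 0.39, a call lost in 13 of 23 settings, and Ngp, another granule protein, changed by -0.76, SE 0.35 (adjusted p = 0.0958), whereas Lcn2, also of the list and of neutrophil granules, rose as given above. Without the 4 arrays high in dorsal root ganglion genes only 4 neutrophil genes were called. S100a9 (1.11, adjusted p = 0.079) and Retnlg (adjusted p = 0.0912) were no longer among them.

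Of 20 monocyte and macrophage genes, 12 rose and none fell (median 0.81). Arg1, an arginase of repair macrophages, stood at 3.28, 3.61, 2.89 and 1.50 in the day 1 cords, against -0.24, -0.57, -0.50 and -0.18 in the control cords. All day 1 cords were above the controls (3.19, SE 0.44, adjusted p = 2.07e-06). Cd14, the co-receptor for bacterial lipopolysaccharide, rose by 2.40 and the scavenger receptor Msr1 by 1.74. Ccr2, the receptor of monocytes that enter from the blood, changed by -0.19, SE 0.21 (adjusted p = 0.534), and Lyz2 by 0.58, SE 0.48 (adjusted p = 0.373), neither past the threshold. Among 13 lymphocyte genes, 3 rose (23.1%, against 15.8% of all genes), by at most 0.62, and 1 rose without day 1 replicate 4. In tissue RNA, more or fewer cells of a type cannot be told apart from more or less RNA per cell, here or for the cell types below.

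Receptors by which phagocytes sense damage rose with them. Of 20 toll-like and Fc receptor genes, 14 rose and none fell, led by the Fc gamma receptors Fcgr3 (2.88) and Fcgr2b (2.86). Of 16 complement genes, 11 rose, among them the receptor C3ar1 (1.94) and C1qb, a chain of the first component (1.33). Of 27 type I interferon genes, 14 rose, with Gbp3 at 1.89 and Ifitm3 at 1.69. Of 14 genes of MHC class I presentation, 6 rose, led by the peptide transporter Tap1 (1.50). None of 9 MHC class II genes passed in either direction (limma; unadjusted p was under 0.05 for 4 of them), and their changes ran from -0.25 to 0.66. No gene of these 5 lists fell.

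Resting microglia genes moved apart from one another. Of 13 measured, 5 fell and 2 rose, with a median of -0.48. P2ry12 and Siglech led the falls, as given above, followed by Slc2a5, a fructose transporter (-0.90), Sall1, a transcription factor of microglial identity (-0.52), and Bin1. Gpr34, a lipid receptor of microglia, stood at -1.08, -1.58, -1.10 and -0.77 in the day 1 cords, against -0.11, -0.64, -0.44 and -0.24 in the control cords. All day 1 cords lay below the controls, yet with the spread taken over all 32 arrays it did not pass (-0.78, SE 0.33, adjusted p = 0.0749). Cx3cr1, the fractalkine receptor, stood at 0.33, -0.41, -0.54 and 0.35 in the day 1 cords, against 0.012, -0.62, 0.23 and -0.073 in the control cords. The groups overlapped (0.043, SE 0.32, adjusted p = 0.936). Csf1r, the growth factor receptor on which microglia depend, changed by 0.21, SE 0.24 (adjusted p = 0.53). Tmem119 rose by 0.44, SE 0.15 and Olfml3 by 0.86, SE 0.18, though Tmem119 lost its call in 7 of 23 settings and Sall1 in 9. Of this list, 3 members were called lower without the 4 arrays high in dorsal root ganglion genes.

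Genes of activated, phagocytic microglia rose in 7 of 14, with none lower. Lgals3, galectin 3, stood at 1.68, 1.83, 1.55 and 1.28 in the day 1 cords, against -0.61, -0.36, -0.73 and -0.69 in the control cords. Day 1 cords were above the controls in each case (2.18, SE 0.25, adjusted p = 1.14e-07). The lipid sensor Trem2 changed by -0.57, SE 0.33 (adjusted p = 0.187) and Apoe by -0.45, SE 0.22 (adjusted p = 0.123), neither past the threshold, while Tyrobp, the adaptor of Trem2, rose by 0.73, SE 0.22.

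The resting list responded otherwise in the cerebrum, while the activated list was called higher in both tissues. In the cerebrum 6 of the 13 resting genes rose and none fell, and 10 of the 14 activated genes rose and none fell. The spinal minus cerebral difference was called lower for 6 and 4 members, and higher for none. P2ry12 changed by 0.15 in the cerebrum (difference -2.38, adjusted p = 6.17e-05), Csf1r by 1.87 (difference -1.66, adjusted p = 0.00144) and Trem2 by 1.28 (difference -1.85, adjusted p = 0.00936). Mpeg1, a pore-forming protein of macrophages and microglia, was not called in the cord and rose in the cerebrum, with -0.22 in the cord and 3.47 in the cerebrum (difference -3.69, adjusted p = 1.17e-06).

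**Figure D3:**
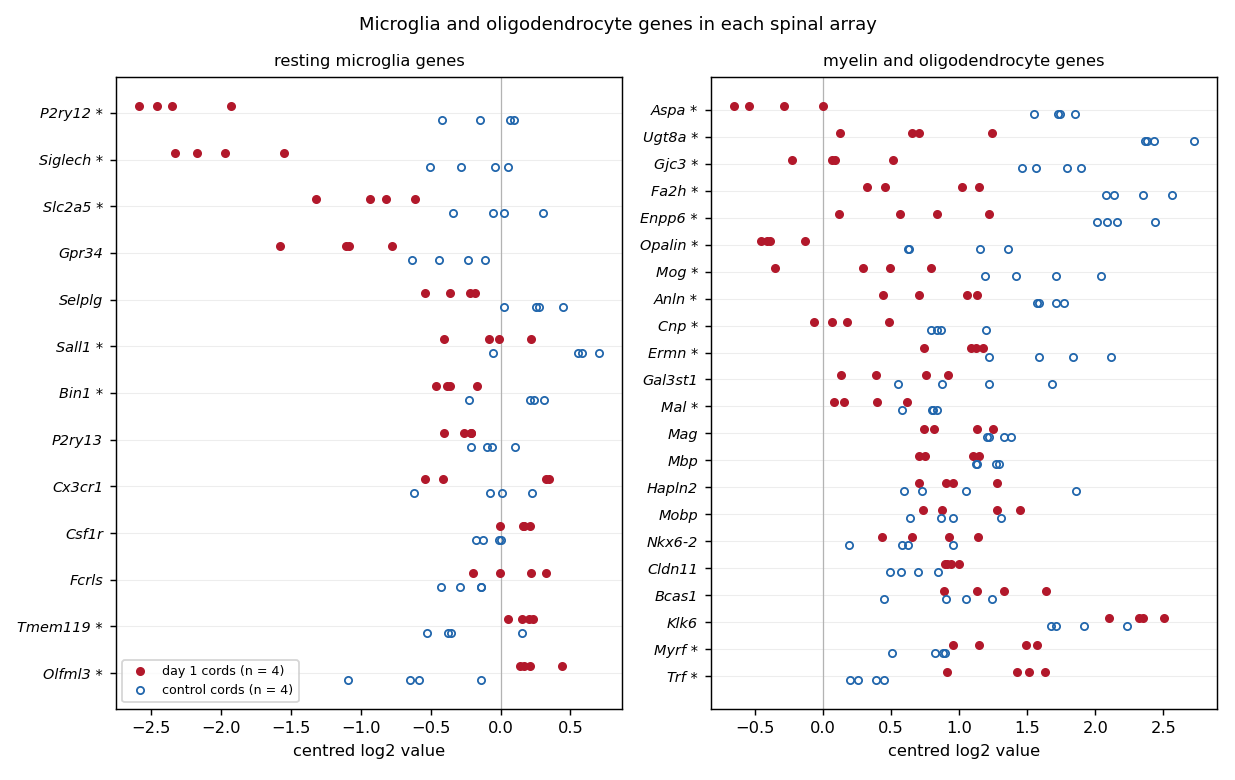
Centred log2 values of all 13 measured resting microglia genes (left panel) and all 22 measured myelin and oligodendrocyte genes (right panel), ordered by change, in the 4 day 1 cords (filled circles) and the 4 control cords (open circles); a star marks an adjusted p under 0.05. P2ry12 and Siglech are apart from their controls while Cx3cr1 and Csf1r overlap, and Aspa and Ugt8a fell while Mbp and Mag overlap.

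Reactive astrocyte genes rose nearly as a whole. Of 21 measured, 19 rose and none fell, with a median of 1.51. Besides Lcn2, Serpina3n, Tgm1 and Timp1 above, Hspb1, the small heat shock protein 27, stood at 4.77, 4.90, 5.07 and 4.53 in the day 1 cords, against 0.55, 2.92, 1.01 and 1.58 in the control cords. The day 1 cords lay above the controls (3.30, SE 0.41, adjusted p = 4.76e-07). Emp1, a membrane protein of the claudin-like PMP22 family, rose by 3.18, the hyaluronan receptor Cd44 by 1.83 and Vim, vimentin, by 1.48. Gfap, an intermediate filament of astrocytes that is used as a marker of reactive ones, rose less. Its values were 1.41, 0.97, 1.31 and 1.06 in the day 1 cords, against 0.25, -0.19, 0.55 and -0.048 in the control cords. All day 1 cords lay above the controls, but by less than for the genes before (1.05, SE 0.26, adjusted p = 0.00239), and the call was lost without the 4 arrays high in dorsal root ganglion genes, at 0.78, adjusted p = 0.149. In the cerebrum Gfap rose by 3.60 (difference -2.55, adjusted p = 3.9e-05), whereas Timp1 and Hspb1 rose more in the cord (differences 3.15 and 2.87).

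Of 16 genes of resting astrocytes, 4 rose and 4 fell (25% each, against 15.8% and 16.1% of all genes). Gja1, connexin 43 of gap junctions, fell by 0.80 and S100b, a calcium-binding protein, by 0.96. Fgfr3, a growth factor receptor, rose by 1.14 and the glutamate transporter Slc1a2 by 0.38, a call lost in 5 of 23 settings. Aqp4, the water channel of astrocyte end-feet, changed by -0.26, SE 0.36 (adjusted p = 0.616). In the cerebrum 11 of these 16 rose and none fell, and the difference was lower in the cord for 7. Leaving out the 4 arrays high in dorsal root ganglion genes left 1 member called lower.

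Of 22 myelin and oligodendrocyte genes, 11 fell and 2 rose, with a median of -0.49. After Aspa, given above, the falls included Ugt8a. This enzyme, which makes the myelin lipid galactosylceramide, stood at 0.66, 0.12, 0.70 and 1.24 in the day 1 cords, against 2.37, 2.38, 2.73 and 2.43 in the control cords. Each day 1 cord was below the lowest control (-1.80, SE 0.32, adjusted p = 8.74e-05). Fa2h, which hydroxylates myelin fatty acids, fell by 1.55, Gjc3, a connexin of myelinating glia, by 1.57, and Enpp6, a choline phosphodiesterase of newly formed oligodendrocytes, by 1.49. Mog, an outer myelin glycoprotein, fell by 1.28 (adjusted p = 0.000106).

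Mbp, myelin basic protein, stood at 0.71, 0.75, 1.10 and 1.14 in the day 1 cords, against 1.27, 1.13, 1.29 and 1.12 in the control cords. Its groups overlapped (-0.28, SE 0.11, adjusted p = 0.0567), and it passed the threshold in 7 of 23 settings, quantile normalisation among them (-0.40, adjusted p = 0.018). Mag, an inner myelin glycoprotein, changed by -0.30, SE 0.18 (adjusted p = 0.216). Trf, transferrin, and Myrf, the master transcription factor of myelination, rose by 1.05 and 0.51, although Myrf lost its call in 4 of 23 settings. Of 14 precursor genes, 6 fell and none rose. Gpr17, a receptor of cells committed to differentiate, stood at -1.17, -1.46, -1.44 and -0.49 in the day 1 cords, against 0.54, 0.039, 0.77 and 0.61 in the control cords. Both groups were apart, with day 1 replicate 4 nearest to the controls (-1.63, SE 0.37, adjusted p = 0.00107). The lineage factors Olig1 and Sox10 fell by 1.01 and 0.79.

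The cerebrum at day 1 showed 11 of the 22 myelin genes higher and none lower. The difference was called lower in the cord for 15 and higher for none. For Ugt8a the cerebral change was 0.24 (difference -2.04, adjusted p = 0.00397), for Mbp 0.58 (difference -0.86, adjusted p = 0.000612) and for Mog 0.48 (difference -1.76, adjusted p = 0.000794).

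**Figure D4:**
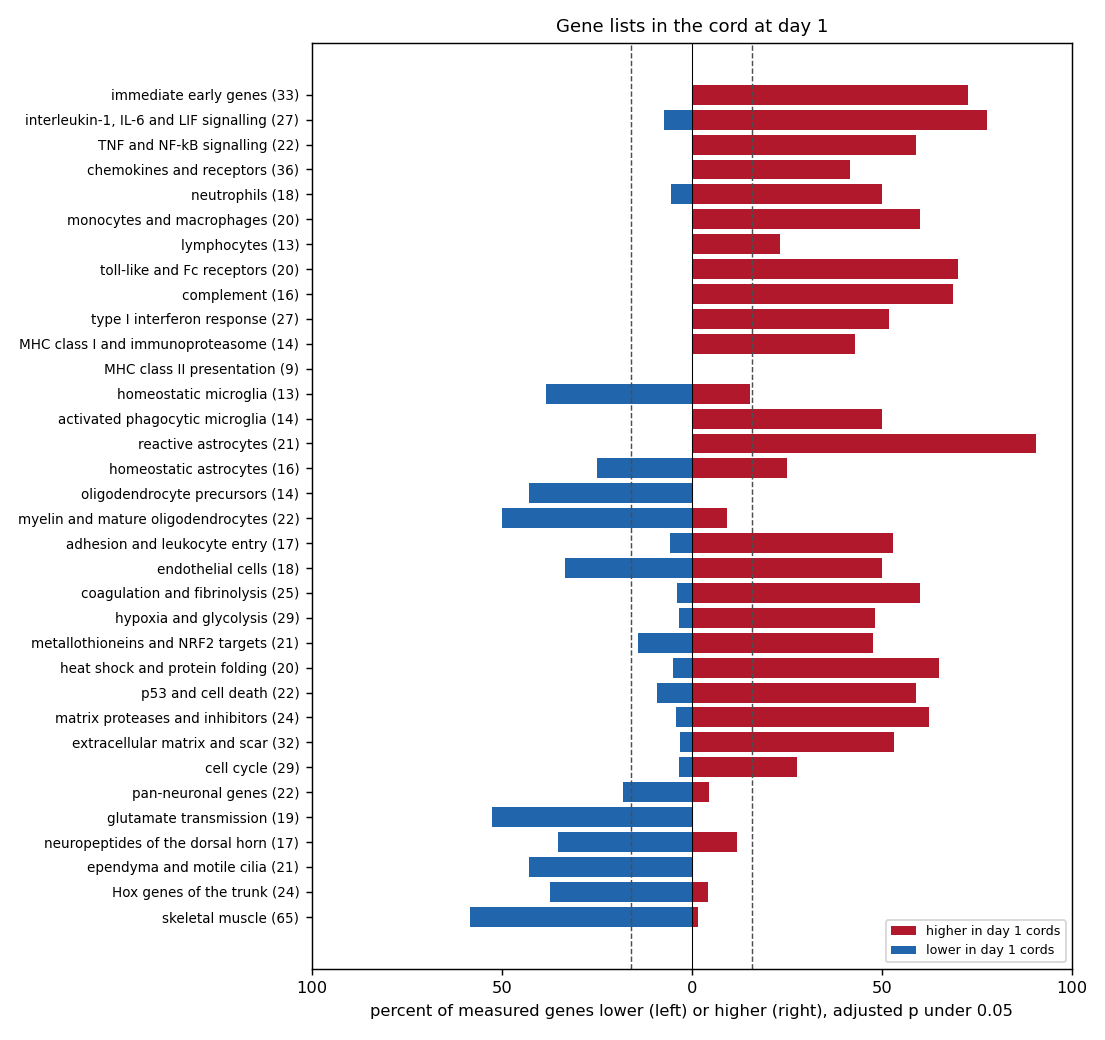
Share of the measured genes of each list that rose (right of 0) or fell (left of 0) in day 1 cords at an adjusted p under 0.05, for 34 lists, with the number measured beside each name. The dashed lines mark the shares over all genes, 15.8% higher and 16.1% lower; reactive astrocyte genes (19 of 21) reach furthest to the right, and skeletal muscle genes (38 of 65) furthest to the left.

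Genes of the vessel wall were called in both directions. Of 17 adhesion genes, 9 rose and 1 fell. Sele, E-selectin, which slows leukocytes on the vessel wall, stood at 0.78, 1.67, 1.10 and 0.30 in the day 1 cords, against 0.055, -0.19, -0.29 and -0.055 in the control cords. Day 1 replicate 4 was the nearest to the controls, which all lay below it (1.08, SE 0.24, adjusted p = 0.00103). Icam1, which binds leukocyte integrins, rose by 0.999, SE 0.14, while Vcam1 changed by -0.15, SE 0.16 (adjusted p = 0.517) and Jam2, a junctional adhesion molecule, fell by 1.02. Of 18 endothelial genes, 9 rose and 6 fell. Cdh5, the cadherin of endothelial junctions, rose by 1.51. Slco1a4, an organic anion transporter of the barrier, stood at -0.95, -0.88, -0.54 and 0.33 in the day 1 cords, against 1.23, 1.06, 0.92 and 1.35 in the control cords. The day 1 values were all below the control values, with day 1 replicate 4 the nearest (-1.65, SE 0.26, adjusted p = 1.21e-05). The receptors Tek and Kdr, for angiopoietin and VEGF, fell by 0.79 and 0.66.

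Genes of clotting and its limits rose together. Of 25 measured, 15 rose and 1 fell. Plaur, the urokinase receptor that gathers plasmin-forming activity on cells, stood at 2.26, 3.98, 3.33 and 1.84 in the day 1 cords, against -0.42, 0.17, -0.66 and -0.36 in the control cords. The lowest day 1 cord stood well above the highest control (3.17, SE 0.39, adjusted p = 2.99e-07). The list held both procoagulant and anticoagulant genes, with tissue factor F3 at 0.90, thrombomodulin Thbd at 1.57, the tissue plasminogen activator Plat at 0.92, and the inhibitor Tfpi2 at 1.45. Thbs1, thrombospondin 1 of platelets and matrix, rose by 2.92. Of 23 angiogenic genes, 10 rose and 5 fell (43.5% and 21.7%, against 15.8% and 16.1% of all genes). The vasodilator peptide Adm rose by 3.12 and Angpt2, which loosens vessels, by 1.39, while Vegfa changed by 0.20, SE 0.16 (adjusted p = 0.38). Of these 23, 5 were called higher and 3 lower without the 4 arrays high in dorsal root ganglion genes.

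Each list of stress genes held more rises than falls. Of 29 genes of hypoxia and glycolysis, 14 rose and 1 fell, with hexokinase Hk2 at 1.89 and the lactate carrier Slc16a3 at 1.43. Of 21 metallothionein and NRF2 target genes, 10 rose and 3 fell (47.6% and 14.3%, against 15.8% and 16.1% of all genes). Hmox1, which breaks down heme, stood at 1.17, 1.48, 2.02 and 1.77 in the day 1 cords, against -0.86, -0.44, -0.22 and -0.92 in the control cords. The groups did not overlap (2.22, SE 0.37, adjusted p = 3e-05). Mt1 and Mt2, metal-binding metallothioneins, rose by 1.90 and 0.79, and the zinc importer Slc39a14 by 1.94. The falls in this list came to 1 without day 1 replicate 1 or 2 or control replicate 3. Of 22 heme and iron genes, 7 rose and 3 fell (31.8% and 13.6%), the falls below the 16.1% of all genes. Among the falls was the iron exporter Slc40a1 (-1.07).

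Of 20 heat shock and folding genes, 13 rose and 1 fell. The inducible Hspa1a rose by 0.83, whereas Cryab, a small heat shock protein abundant in oligodendrocytes, fell by 1.16 (adjusted p = 3.37e-08). Among 22 genes of p53 and cell death, 13 rose and 2 fell. Cdkn1a, the cell cycle inhibitor p21, stood at 1.94, 3.19, 3.39 and 2.58 in the day 1 cords, against 0.14, 1.17, 0.71 and 0.19 in the control cords, with all day 1 cords above the controls (2.22, SE 0.43, adjusted p = 0.000223). The survival genes Bcl2a1a, Bcl2a1b and Bcl2a1d rose by 3.02, 3.26 and 3.07, but they are near-identical copies whose probes may read one another. Without the 4 arrays high in dorsal root ganglion genes, 8 of these 22 were called higher. Of 18 genes of prostaglandin and leukotriene synthesis, 8 rose and none fell, with cyclooxygenase 2, Ptgs2, at 2.07, and 5 rose without those 4 arrays.

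Matrix genes followed the same direction. Of 24 proteases and inhibitors, 15 rose and 1 fell. Adamts1, which cuts proteoglycans, stood at 3.08, 3.78, 3.93 and 2.92 in the day 1 cords, against 0.078, 0.80, 0.091 and -0.37 in the control cords. Day 1 cords lay far above the controls (3.28, SE 0.33, adjusted p = 8.8e-09). Mmp12, the macrophage elastase, rose by 2.36, SE 0.39, less than in the cerebrum at 5.60 (difference -3.24, adjusted p = 0.000267). Mmp3, stromelysin 1, rose by 2.91, SE 0.70, but not without the 4 arrays high in dorsal root ganglion genes (1.94, adjusted p = 0.177). Of 32 matrix and scar genes, 17 rose and 1 fell, among them fibronectin, Fn1 (2.65). Of 20 fibroblast and meninges genes, whose mean differed between arrays as given above, 4 rose, led by the proteoglycan Dcn (2.06, adjusted p = 0.0156). Dcn lost its call in 8 of 23 settings, among them the muscle mean as a covariate (1.51, adjusted p = 0.357), and its change was 2.98, adjusted p = 1.9e-05 without those 4 arrays and 1.14, adjusted p = 0.0127 with only them. Leaving out 1 array gave between 2 and 8 rises in this list, with 8 without control replicate 2.

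Of 29 cell cycle genes, 8 rose and 1 fell (27.6% and 3.45%, against 15.8% and 16.1% of all genes), with a median of 0.11. The rises were led by Pcna (0.73) and the helicase subunits Mcm3 (0.73) and Mcm4 (0.61), with Mcm5 at 0.60, a call lost in 5 of 23 settings. Mki67, a marker of dividing cells, stood at 0.57, -0.31, -0.26 and -0.29 in the day 1 cords, against 0.0019, 0.10, -0.0019 and -0.32 in the control cords. The groups overlapped (-0.018, SE 0.36, adjusted p = 0.977), and Cdk1, the kinase of entry into mitosis, changed by 0.38, SE 0.35 (adjusted p = 0.438). In the cerebrum 22 of these 29 rose, Mki67 by 3.13, and the difference was called lower in the cord for 10 (Mki67 -3.15, adjusted p = 0.000146). Without the 4 arrays high in dorsal root ganglion genes, 1 member was called higher in the cord.

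Of 22 pan-neuronal genes, 4 fell and 1 rose, which is 18.2% lower against 16.1% of all genes, with a median of -0.063. Snap25, which drives vesicle fusion, stood at 0.094, 0.19, 0.18 and 0.22 in the day 1 cords, against 0.30, 0.092, 0.27 and 0.23 in the control cords. The groups overlapped (-0.049, SE 0.15, adjusted p = 0.836). Rbfox3, the nuclear marker NeuN, fell by 0.80 (adjusted p = 0.000389), and Thy1 fell by 0.90. Of 19 genes of glutamate transmission, 10 fell and none rose, among them the receptor genes Grm3 (-1.43) and Gria4 (-0.90), while the vesicle transporter Slc17a6 changed by -0.085, SE 0.21 (adjusted p = 0.787). Without day 1 replicate 3, 6 of these were called lower. Of 18 genes of glycine and GABA transmission, 5 fell and 1 rose (27.8% and 5.56%, against 16.1% and 15.8% of all genes). Leaving out 1 array gave between 3 and 9 falls, with 9 without day 1 replicate 4.

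Of 17 neuropeptide genes of the dorsal horn, 6 fell and 2 rose (35.3% and 11.8%, against 16.1% and 15.8% of all genes). Npy, neuropeptide Y, stood at -2.12, -1.82, -2.11 and -1.62 in the day 1 cords, against -0.33, -1.01, -0.16 and -0.50 in the control cords. All day 1 cords were below all controls (-1.42, SE 0.24, adjusted p = 4.99e-05). Tac2, neurokinin B, fell by 1.28 and Sst, somatostatin, by 0.93, while Crh, corticotropin-releasing hormone, rose by 0.82. Of 16 motor neuron and cholinergic genes, 2 fell and 2 rose (12.5% each, below the shares of all genes). Chodl, a marker of fast motor neurons, fell by 1.50, while Chat, which makes acetylcholine, changed by 0.059, SE 0.15 (adjusted p = 0.794).

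Of 24 genes of axon injury and regeneration, 9 rose and 2 fell (37.5% and 8.33%, against 15.8% and 16.1% of all genes). The rises included Atf3 and Hspb1, given above, and the tubulin Tubb6 (2.50), and the growth cone protein Gap43 changed by 0.13, SE 0.10 (adjusted p = 0.355). Of 21 genes of motile cilia, which ependymal cells carry, 9 fell and none rose, with Ccdc153 at -1.02 and Rsph4a at -0.97. Of 30 genes of oxidative phosphorylation, 10 fell and 4 rose, all by less than 1. That is 33.3% lower and 13.3% higher, the rises below the 15.8% of all genes. Of 24 Hox genes of the trunk, 9 fell and 1 rose (37.5% and 4.17%, against 16.1% and 15.8% of all genes), with Hoxb9 at -1.10. In this list 5 fell without day 1 replicate 2, without control replicate 3 or without the 4 arrays high in dorsal root ganglion genes.

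Over all genes, the spinal minus cerebral difference at day 1 was called in 2200 genes (11.3%), 917 higher in the cord and 1283 lower. With the 75th percentile of each array subtracted the higher share of these calls was 28.5%, against 41.7% in the values as deposited. Of the 6224 genes called in the cord, 1430 were called in the same direction in the cerebrum, 146 in the opposite one and 4648 were not called there. Besides the genes above, the largest positive differences were those of Prg4, lubricin of joints (4.17), Saa3, an acute phase protein of macrophages (3.06), and Prl, prolactin of the pituitary (2.91), which changed by -0.066 in the cord and by -2.98 in the cerebrum. Prg4 stood at 5.65, 6.42, 5.95 and 1.98 in the day 1 cords, against -0.64, 3.66, -1.30 and 1.81 in the control cords. Day 1 replicate 4 lay within the range of the controls, whose replicate 2 was the highest, and the call of the difference was lost in 7 other settings.

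Muscle genes aside, the largest negative differences besides Mpeg1, Mmp12, Mki67, Gfap, Gng8 and Depdc7 were those of Pbk, a kinase of dividing cells (-2.91), Tcf7l2, a WNT effector (-2.63), Glra1, the glycine receptor (-2.60), and Ebf3, a transcription factor (-2.57). All 4 rose in the cerebrum, Pbk by 2.90, Tcf7l2 by 1.85 and Glra1 by 2.80, and none of them passed in the cord, where Glra1 changed by 0.20, SE 0.28. Tcf7l2, Glra1 and Prl are known for expression in thalamus, brainstem and pituitary rather than cerebral cortex, and the part that dissection of the cerebrum had in these differences was not tested.

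**Figure D5:**
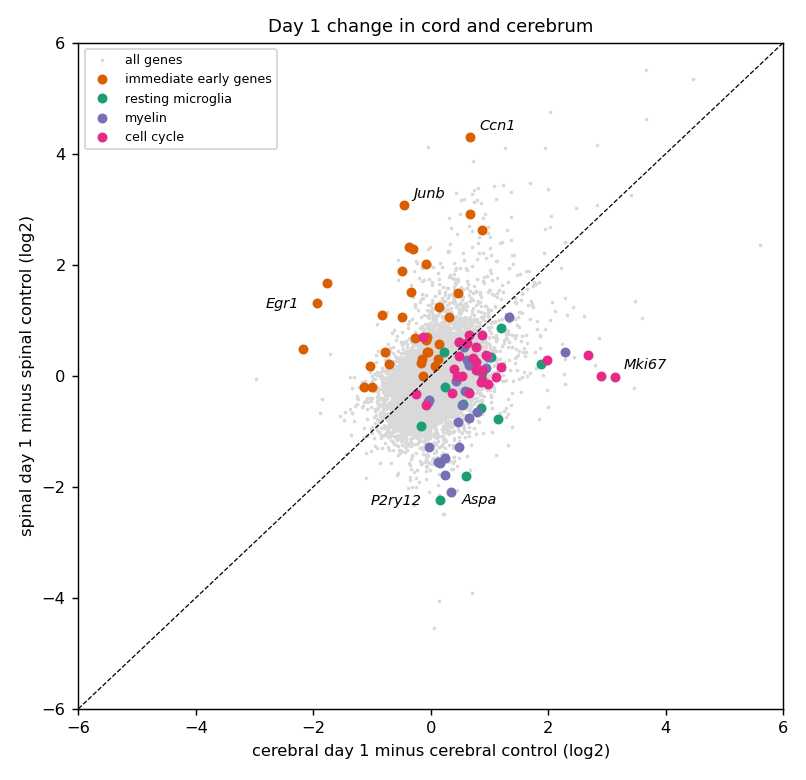
Log2 change at day 1 in the cord (vertical axis) against that in the cerebrum (horizontal axis) for all measured genes of 4 lists, with grey points for all other genes and the diagonal of equal change. Immediate early genes lie mostly above the diagonal, and resting microglia, myelin and cell cycle genes lie mostly below it.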

How the data were processed

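RNA of mouse spinal cord and cerebrum was measured on 1-colour arrays, 4 in each of 8 groups, from 10 ng of total RNA extracted with TRIzol, per the labels' protocols. The deposited values are log2 values that the authors had normalised and centred for each probe. Array software, summarisation and log base are not given in the sources consulted, and base 2 was assumed. Over the 16 arrays of controls and day 1 the median was 0 in 100% of probes. Arrays of day 3 and day 7 have a centring of their own, which the group means absorb. Centred values hold no level, so dim probes could not be filtered. The labels name no batch. Title numbers run in a separate range for each group, and if these stand for batches, a batch effect cannot be told apart from the group.

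Of 22206 probes, 19572 have 1 gene symbol in the platform annotation, which was matched to RefSeq, 0 have several and 2634 have none. Probes of a gene were averaged (55 genes), leaving 19505 genes. limma 3.58.1 in R 4.3.3 was fitted to all 32 arrays with 8 group means (24 residual degrees of freedom), with Benjamini-Hochberg adjustment over all genes, and the code was tested on simulated data. The contrasts were day 1 minus control in the cord, the same in the cerebrum, and their difference. The genes named are the 15 strongest rises and the 15 strongest falls among called genes whose groups do not overlap, the 10 largest differences between tissues each way, and members of 52 gene lists (1101 genes, 1005 measured). Predicted genes and, for the ranked genes, muscle genes were passed over. The members and lists were chosen with earlier results of these data known, and 2 more lists were added after the values were seen. Promoter sequences are RefSeq's on GRCm38.p6. Alternatives were other scalings, other sets of arrays, array weights, robust variances, a filter on variable genes, single probes, subsets of the spinal controls, a muscle covariate and each array left out, and, chosen after seeing the data, with and without 4 arrays high in dorsal root ganglion genes. Tables and plots were made with Python 3.11.15, pandas 2.3.3, numpy 2.4.6 and matplotlib 3.10.9.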

Additional observations from a re-analysis of the deposited data

Results flagged for a closer look

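For 22 of 414 groups of 4 cords, over the 207 genes named here, 1 cord stood apart from the other 3 by Dixon's criterion for outlying values. That is 5.31% of the groups, and chance gives about 1 in 20. Day 1 replicate 1 stood above the other 3 for Mki67 (0.57, the others -0.31 to -0.26) and below the other 3 for Ms4a6d (2.18, the others 2.86 to 2.93). Day 1 replicate 2 stood above the other 3 for Msr1 (1.74, the others 1.25 to 1.33). Day 1 replicate 3 stood below the other 3 for Rbfox3 (-1.52, the others -0.95 to -0.87). Day 1 replicate 4 stood above the other 3 for Myorg (-0.11, the others -0.92 to -0.85), Pigz (0.24, the others -0.34 to -0.25), Cntfr (0.43, the others -0.56 to -0.43) and Tac2 (1.35, the others 0.25 to 0.36) and below the other 3 for Mmp12 (0.32, the others 1.60 to 1.80), Fcgr3 (1.68, the others 1.85 to 1.87), Tap1 (0.43, the others 1.29 to 1.41) and Vcam1 (-0.55, the others -0.038 to 0.048). Control replicate 1 stood above the other 3 for Mmp12 (-0.32, the others -1.25 to -1.18). Control replicate 2 stood above the other 3 for Selp (0.10, the others -1.13 to -1.09), Junb (-1.11, the others -1.75 to -1.67) and Thbd (0.48, the others -0.84 to -0.71) and below the other 3 for Lif (-0.35, the others -0.070 to -0.039). Control replicate 3 stood above the other 3 for Cxcr2 (0.090, the others -0.32 to -0.31) and below the other 3 for Tfpi2 (-0.27, the others -0.036 to -0.0046). Control replicate 4 stood below the other 3 for Bcl2a1b (-1.24, the others -0.85 to -0.81), Cdk1 (-0.37, the others -0.046 to -0.034) and Jam2 (1.11, the others 1.32 to 1.34).

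The spinal and cerebral responses at day 1 differed, by the test of the difference itself, for 139 of the 207 named genes, and the values here are spinal minus cerebral log2 changes. These genes were named for their spinal change, their difference or their list, so the number is a description. For genes that cells induce at once after a stimulus listed here it was positive, with Ccn1 (3.64), Junb (3.52), Egr2 (3.44), Egr1 (3.26), Dusp1 (2.68), Gadd45b (2.59), Fosl2 (2.37), Myc (2.24), Fos (2.10), Atf3 (1.76) and Npas4 (0.79). Among clock and glucocorticoid target genes, the difference was positive for Sgk1 (1.96), Nfil3 (1.96), Per1 (1.89), Bhlhe40 (1.72), Errfi1 (1.54) and Fkbp5 (1.21), and negative for Dbp (-1.76) and Per3 (-1.06). Among cytokine, TNF and chemokine genes, the difference was positive for Ccl6 (2.62), Il1b (2.53), Tnfrsf12a (2.34), Il11 (2.33), Il6 (2.32), Ccl3 (2.20), Bcl3 (2.11), Il1rn (1.88), Cxcl2 (1.55), Ccl2 (1.52), Nfkbiz (1.49), Ccr1 (1.47), Il33 (1.18), Lif (1.10), Tnfrsf1a (1.08), Clcf1 (1.04), Osmr (1.01) and Socs3 (0.53), and negative for Cntfr (-0.87) and Il18 (-0.63). For genes of neutrophils, macrophages and phagocyte receptors listed here it was positive, with Saa3 (3.06), Arg1 (2.08), Thbs1 (2.01), Ms4a6d (1.77), S100a9 (1.67), Cd14 (1.59), Fcgr2b (1.49), Lilrb4a (1.32), Msr1 (1.31), Cxcr2 (0.86) and Fcgr3 (0.84). For microglial genes listed here it was negative, with Mpeg1 (-3.69), Siglech (-2.41), P2ry12 (-2.38), Gpr34 (-1.92), Trem2 (-1.85), Csf1r (-1.66), Tyrobp (-1.14), Sall1 (-1.06) and Apoe (-0.98). Among astrocyte genes, the difference was positive for Timp1 (3.15), Hspb1 (2.87), Emp1 (2.62) and Serpina3n (0.96), and negative for Gfap (-2.55), Aqp4 (-2.24), Myorg (-1.64), Gja1 (-1.50) and S100b (-1.23).

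For genes of oligodendrocytes and their precursors listed here it was negative, with Aspa (-2.43), Gpr17 (-2.08), Ugt8a (-2.04), Mog (-1.76), Enpp6 (-1.73), Gjc3 (-1.72), Fa2h (-1.67), Olig1 (-1.63), Cryab (-0.97), Mag (-0.93), Sox10 (-0.91) and Mbp (-0.86). Among genes of the vessel wall, clotting and matrix, the difference was positive for Prg4 (4.17), Rhoj (2.84), Plaur (2.65), Adamts1 (2.58), Itga5 (2.57), Adm (2.26), Tnc (2.15), Tagln (1.90), Tfpi2 (1.54) and Plat (0.86), and negative for Mmp12 (-3.24), Aplnr (-2.09), Slco1a4 (-1.59), Kdr (-1.34), Tek (-1.20), Jam2 (-1.02), Vcam1 (-0.97) and Rgs5 (-0.80). Among stress, metabolic and growth factor genes, the difference was positive for Ptgs2 (2.32), Inhba (2.30), Mt1 (2.19), Slc39a14 (2.09), Igfbp3 (2.05), Cdkn1a (1.93), Hbegf (1.73), Ch25h (1.60), Mt2 (1.28), Slc16a3 (0.90) and Hspa1a (0.85), and negative for Plin2 (-2.13), Lpcat2 (-1.65), Gamt (-1.59) and Slc40a1 (-0.93). For genes of dividing cells listed here it was negative, with Mki67 (-3.15), Pbk (-2.91) and Cdk1 (-2.30). Among neuronal, axonal and ion channel genes, the difference was positive for Tubb6 (1.48) and Crh (1.44), and negative for Glra1 (-2.60), Chodl (-1.41), Grm3 (-1.37), Slc17a6 (-1.36) and Kcna6 (-0.85). Among the remaining genes, the difference was positive for Prl (2.91), and negative for Myh4 (-4.61), Gng8 (-2.73), Tcf7l2 (-2.63), Ebf3 (-2.57), Depdc7 (-2.53), Hhip (-2.51), Car14 (-2.28), Tprkb (-1.78), Chn2 (-1.72), Pigz (-1.47), Ttr (-1.41), Ccdc153 (-1.36), Rsph4a (-1.26), Hoxb9 (-1.04) and Cep70 (-0.72).

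Probes with no gene symbol were left out of the comparison. Fitted in the same way in a separate table, 723 of 2634 such probes were called in day 1 cords, 348 higher and 375 lower, and they are not named here.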

How the results depend on the processing

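The direction of each named gene that was called in the values as deposited held under every alternative run, and 125 of 5109 recomputed gene values lost a call that the deposited values gave, 26 with only the 4 arrays high in dorsal root ganglion genes and 22 without them. Hoxc8, named above for its position along the body, was not called in 9 of 23 settings. Among genes whose losses are not given above, Slc2a5 lost its call in 3 of 23 settings, Gja1, Kdr, Mcm3, Mcm4, Olig1 and Tyrobp each in 2 of 23, and Bin1 in 2 of 22. Other named genes lost theirs in 1 of 23 settings. Among them, Sele and Pcna did so without the 4 arrays high in dorsal root ganglion genes. Rbfox3, Sox10, Tac2, Sst, Olfml3, Fgfr3, Hoxb9 and Tek did so with only those 4 arrays. The 6224 genes called in the cord moved by over 1.5 times where fewer arrays or a covariate were used. They came to 4113 with only spinal control replicates 1 and 2, 3908 with the muscle mean as a covariate, 3303 without the 4 arrays high in dorsal root ganglion genes and 3349 with only those 4. The 2200 genes differing between the tissues came to 1418 with only control replicates 1 and 2, and to 1145 without and 1286 with only those 4 arrays. The alternatives that halve the arrays have fewer samples, and the cause of the remaining moves was not tested. With the spread taken from the 8 spinal arrays only, 4829 genes were called in the cord. Leaving out 1 array in turn gave 5214 to 5828 genes in the cord and 1564 to 2306 differing. Quantile normalisation gave 5200 and 2240, and subtracting the 75th percentile of each array gave 6065 and 2250. No paired analysis was possible because the replicate numbers follow the order of the arrays and mark no shared animal, litter or day. Arrays with the same number had a mean correlation of 0.02 over genes in their deviations from the group means. The values hold no level or background, so precision at low signal could not be judged.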

Other observations

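Growth factor genes were called only in the higher direction, but their list means overlapped between the groups. The means were 0.82, 0.78, 0.45 and -0.012 in the day 1 cords, against -0.35, 0.55, -0.39 and 0.18 in the control cords. Day 1 replicate 4 lay below control replicates 2 and 4. Of 25 measured, 10 rose and none fell, and 6 rose without the 4 arrays high in dorsal root ganglion genes or without day 1 replicate 1. Igfbp3, which binds insulin-like growth factors, stood at 2.83, 3.67, 3.25 and 1.32 in the day 1 cords, against -0.061, 1.72, -0.26 and 0.21 in the control cords. Control replicate 2 lay above day 1 replicate 4, and the other day 1 cords above all controls. The change was 2.37, SE 0.47 (adjusted p = 0.000247). Hbegf, a ligand of the EGF receptor, rose by 1.86, SE 0.21, and Gfra1, a receptor for GDNF, by 1.08, SE 0.16. Inhba, a subunit of activin, rose by 1.73, SE 0.52, but not without the 4 arrays high in dorsal root ganglion genes (1.05, adjusted p = 0.363).

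Several lists had shares near those of all genes (15.8% higher, 16.1% lower), and their members are given as values. Of 14 pericyte and smooth muscle genes, 3 rose and 2 fell (21.4% and 14.3%). Tagln, an actin-binding protein of smooth muscle, stood at 2.43, 2.38, 2.68 and 2.35 in the day 1 cords, against -0.38, 0.97, -1.13 and -0.033 in the control cords, so that all day 1 cords lay above the controls (2.61, SE 0.26, adjusted p = 1.29e-08). Rgs5, a regulator of G proteins that marks pericytes, fell by 0.70 (adjusted p = 0.00242), and without the 4 arrays high in dorsal root ganglion genes its change was -0.53, adjusted p = 0.13. Of 20 genes of lipid uptake, storage and efflux, 5 rose and 4 fell (25% and 20%). Ch25h, which makes 25-hydroxycholesterol, rose by 2.58, SE 0.26, and Plin2, a coat protein of lipid droplets, by 1.34, SE 0.27, while Lpcat2, an enzyme of membrane lipid synthesis in myeloid cells, fell by 0.84. Of 17 cholesterol synthesis genes 2 rose and 1 fell, with between 0 and 4 rises when 1 array was left out, the 0 without day 1 replicate 1 and the 4 without control replicate 2. Of 23 potassium and sodium channel genes 3 rose and 4 fell, led by Kcna6 (-0.95), and 1 rose and 2 fell without the 4 arrays. Of 13 Schwann cell genes 2 rose and 1 fell, of 11 adipocyte genes 2 rose and 1 fell, and of 3 red blood cell genes 1 rose. Of 11 choroid plexus genes 2 rose and 1 fell, the thyroxine carrier Ttr (-1.49), whose change after quantile normalisation was -0.28, adjusted p = 0.519.

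Dbp, among the largest falls, led to 2 further lists, chosen after the values were seen and given as description. Of 17 circadian clock genes, 4 were called higher and 6 lower (23.5% and 35.3%, against 15.8% and 16.1% of all genes). Nfil3, a repressor of the clock's output genes, stood at 1.10, 1.69, 1.84 and 1.22 in the day 1 cords, against -0.17, -0.16, -0.041 and -0.30 in the control cords. The groups did not overlap, and the change was 1.63, SE 0.21 (adjusted p = 5.62e-07). Bhlhe40, another repressor, changed by 1.41 and Per1 by 1.15, while the clock gene Per3 and the output factor Hlf changed by -1.10 and -1.004. Per2 changed by 0.072, SE 0.17 (adjusted p = 0.781) and did not pass. Of 10 genes that glucocorticoids induce, 6 were called higher and 1 lower. Sgk1, a kinase of ion transport, changed by 1.76, SE 0.36, Errfi1, an EGF receptor inhibitor, by 1.27, SE 0.26, and Fkbp5, a chaperone of the glucocorticoid receptor, by 1.10, SE 0.28, whereas Tsc22d3, another target, changed by -0.62, SE 0.20, a call lost in 6 of 23 settings. The labels used here give no time of day at which cords were taken.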
